A study of Mus musculus with 9 samples.

Results

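Fibro-adipogenic progenitors (FAPs) are the resident mesenchymal cells of skeletal muscle, and 10 genes by which they are recognised were followed here: *Pdgfra*, *Pdgfrb*, *Cd34*, *Thy1*, *Ly6a*, *Pi16*, *Dpp4*, *Hic1*, *Osr1* and *Gli1*. They were taken by name from a table of 54532 mouse genes, and all 10 were matched to a single Ensembl gene. The table holds RNA sequencing counts of tibialis anterior muscle damaged by intramuscular barium chloride. Mice were C57/BL6J, about 4 months (young) or 24 months (old) of age, and every group received the injury and 3 intramuscular injections, of phosphate-buffered saline (PBS) or of recombinant Meteorin-like protein (rMETRNL), a secreted factor of the injury response. The groups were young PBS (replicates 1, 2 and 3), old PBS (replicates 2, 3 and 4) and old rMETRNL (replicates 1, 2 and 3), with no uninjured and no young rMETRNL libraries. The series description gives 4 days after injury and a suspension of muscle cells, whereas the report of the study gives whole muscle and 8 days, so the time point and the preparation are uncertain.

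FAPs lie between the muscle fibres and around vessels, support satellite cells after damage, and can become adipocytes or matrix-producing fibroblasts. The platelet-derived growth factor receptor α is their usual marker together with Sca-1, the product of *Ly6a*. In fibroblasts of many tissues, *Pi16* and *Dpp4* mark a progenitor state found in the adventitia of vessels, whereas *Hic1*, *Osr1* and *Gli1* are transcription factors of mesenchymal progenitors. None of the genes is private to FAPs. *Cd34* is also read in endothelium, *Pdgfrb* in mural cells of vessels, *Thy1* in T cells and neurons, *Dpp4* in T cells, and *Pdgfra* in oligodendrocyte precursors of the brain.

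Libraries held between 16238700 and 22522560 counts. Levels are given in CPM, the count of a gene relative to the library total after TMM scaling in edgeR, and a count of 3, taken as the floor, equals 0.132 to 0.199 CPM. Every member was above the floor in every library, with the lowest count, 31, at *Gli1* and the highest, 4080, at *Cd34*. All 10 members passed the filter on low counts in all 3 comparisons. The old PBS libraries stood apart by transcripts of other tissues. The summed level of 7 hepatocyte genes was 9.27 to 86.9 CPM in old PBS, against 0.113 to 0.463 CPM in young PBS and 0.364 to 0.537 CPM in old rMETRNL. Likewise 7 oligodendrocyte lineage genes summed to 21.4 to 94.6 CPM in old PBS, against 3.22 to 4.27 and 4.18 to 6.10 CPM, and 8 neuron genes to 22.2 to 68.0 CPM, against 7.71 to 11.7 and 9.88 to 10.9 CPM. Young PBS 2 held keratins, with 87.7 CPM over 6 keratinocyte genes where the other libraries held 13.4 to 23.3 CPM. Transcripts of muscle fibres were abundant in every library, 8 genes summing to 78236 to 141354 CPM. In each comparison with old PBS the hepatocyte, oligodendrocyte and neuron transcripts go with the group, whereas the muscle fibre sums overlapped between groups. The part of any of these transcripts in the results below was not tested.

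Compared per length of exon (FPKM), the members covered a wide range of levels. *Ly6a* led with 69.6 ± 18.0 FPKM (mean ± SD, n = 9 libraries), followed by *Cd34* with 21.4 ± 4.395, *Pi16* with 18.5 ± 6.07, *Thy1* with 14.3 ± 3.62 and *Pdgfrb* with 13.3 ± 3.05 FPKM. *Pdgfra* stood at 8.57 ± 1.45, *Hic1* at 6.45 ± 1.54, *Osr1* at 4.10 ± 0.891, *Dpp4* at 2.67 ± 0.698 and *Gli1* at 0.485 ± 0.122 FPKM. *Ly6a* exceeded *Cd34* in all 9 libraries, *Pdgfrb* exceeded *Pdgfra* in all 9, *Pdgfra* exceeded *Hic1* in all 9, *Osr1* exceeded *Dpp4* in all 9, and *Gli1* was the lowest member in all 9. The other neighbours changed places between libraries. *Cd34* was above *Pi16* in 7 libraries, *Pi16* above *Thy1* in 8, *Hic1* above *Osr1* in 8, and *Thy1* above *Pdgfrb* in only 5. Differences between these neighbours were not tested. The length used was that of all annotated exons of a gene, 10024 bases for *Pdgfra*, 5478 for *Pdgfrb* and 7290 for *Cd34*. Their transcripts with the longest coding sequence have 6834, 5423 and 2454 bases, so the order of genes depends on the length used. In CPM, which uses no length, the ratio of *Pdgfrb* to *Pdgfra* ran from 0.603 in old PBS 4 to 1.05 in young PBS 3. All levels here are those of a bulk sample, in which fewer cells of a type and less RNA per cell cannot be told apart.

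*Pdgfra* (ENSMUSG00000029231, chr5:75152292-75198215, plus strand, GRCm38) encodes the receptor by which FAPs answer platelet-derived growth factors and is the gene most often used to sort them. It measured 79.1, 82.4 and 94.4 CPM in young PBS, 76.4, 77.6 and 66.5 CPM in old PBS 2, 3 and 4, and 117, 95.001 and 85.05 CPM in old rMETRNL. The group means were 85.3 ± 8.09, 73.5 ± 6.06 and 98.9 ± 16.1 CPM (SD, n = 3). All 3 old PBS libraries were below all 6 others, while young PBS and old rMETRNL overlapped.

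*Pdgfrb* (ENSMUSG00000024620, chr18:61045150-61085061) encodes the second receptor of the family, which mural cells share with fibroblasts. Its levels were 73.6, 80.5 and 98.9 CPM in young PBS, 62.8, 78.8 and 40.1 CPM in old PBS and 87.4, 65.4 and 68.8 CPM in old rMETRNL. Young PBS 3, the highest library, exceeded old PBS 4, the lowest, 2.47 times, and all 3 groups overlapped.

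*Cd34* (ENSMUSG00000016494, chr1:194938819-194961279), a sialomucin of progenitor and endothelial surfaces, gave the clearest order of groups. It measured 179, 148 and 149 CPM in young PBS, 117, 121 and 134 CPM in old PBS, and 219, 169.8 and 168 CPM in old rMETRNL. As for *Pdgfra*, all 3 old PBS libraries lay below the other 6. *Thy1* (ENSMUSG00000032011, chr9:44043384-44048579), which encodes the surface glycoprotein CD90, followed the same order with 42.0, 38.2 and 47.7 CPM in young PBS, 30.5, 36.7 and 35.3 CPM in old PBS and 68.1, 40.8 and 45.2 CPM in old rMETRNL. The gap was narrow, since the lowest young PBS library exceeded the highest old PBS library by less than the spread within either group.

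*Ly6a* (ENSMUSG00000075602, chr15:74994877-74998031, minus strand) encodes Sca-1, a small surface protein anchored to the membrane by a lipid. The gene sits in a cluster of close relatives whose coding sequences resemble it, and counts of such families depend on how reads are assigned. The first 90 bases of the coding sequence are printed below for *Ly6a* and for 3 neighbours that had counts in these libraries, to show how near they are, with capitals for bases that differ from *Ly6a* at the same position (GENCODE vM21 transcripts, GRCm38, coding strand, 5′ to 3′). *Ly6c1* (chr15:75044018-75048830), *Ly6c2* (chr15:75108158-75111970) and *Ly6i* (chr15:74979534-74983430) are transcribed from the minus strand as well. *Ly6i* was very low, at 0 to 22 counts a library, where *Ly6c2* had 35 to 106 and *Ly6c1* 815 to 1656.
Ly6a: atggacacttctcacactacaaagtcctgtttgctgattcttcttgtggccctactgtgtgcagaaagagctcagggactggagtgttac
Ly6c1: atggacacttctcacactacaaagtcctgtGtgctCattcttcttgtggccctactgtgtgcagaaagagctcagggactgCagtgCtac
Ly6c2: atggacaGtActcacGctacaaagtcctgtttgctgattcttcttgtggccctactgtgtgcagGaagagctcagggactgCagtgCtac
Ly6i: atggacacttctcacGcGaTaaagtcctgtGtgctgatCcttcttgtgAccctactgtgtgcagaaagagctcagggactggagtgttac

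Within this stretch *Ly6c1* differed from *Ly6a* at 4 bases and *Ly6c2* and *Ly6i* at 6 each. Over the longest annotated coding sequence of each gene the identity with *Ly6a* was 66.7% for *Ly6c1*, 81.6% for *Ly6c2* and 86.3% for *Ly6i*. The sequence used was 441 bases long for *Ly6c1* and 402 for *Ly6a*, and other transcripts were not aligned. No window of 100 bases in the *Ly6a* transcript was shared with a transcript of another gene, 0 of 856 windows. *Ly6a* measured 90.3, 84.9 and 58.4 CPM in young PBS, 52.9, 93.0 and 112 CPM in old PBS and 116, 73.2 and 74.6 CPM in old rMETRNL. Low and high libraries occurred in each group, and the groups overlapped throughout. The ratio of *Ly6a* to *Ly6c1* counts stayed between 0.980 and 1.40 over the 9 libraries, whereas *Ly6f* and *Ly6g* had no count in any library. Of the 9 relatives listed, 4 were high enough to be tested, and none of them passed the threshold in any comparison. They ran from *Ly6h* at -0.12 to *Ly6c2* at 0.48 on the log2 scale in old PBS against young PBS, and in old rMETRNL from *Ly6c2* at -0.44 to *Ly6h* at 0.45 against old PBS and from 0.034 to 0.34, for the same pair, against young PBS.

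*Pi16* (ENSMUSG00000024011, chr17:29317680-29330593), which encodes a secreted peptidase inhibitor of adventitial fibroblasts, measured 111, 112 and 76.6 CPM in young PBS and 83.2, 85.2 and 130.4 CPM in old PBS. In old rMETRNL it measured 204, 121 and 136 CPM, all 3 above every young PBS library, and old rMETRNL 1 was the highest of the 9. *Dpp4* (ENSMUSG00000035000, chr2:62330073-62412231) encodes a membrane-bound dipeptidase that trims chemokines and hormones. Its levels were 21.0, 18.5 and 13.9 CPM in young PBS, 17.2, 6.67 and 19.99 CPM in old PBS, and 19.8, 16.1 and 18.7 CPM in old rMETRNL. Old PBS 3 was far below all the others, 1.22 log2 units under the mean of the 9 libraries, and without it the range was 13.9 to 21.0 CPM.

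*Hic1* (ENSMUSG00000043099, chr11:75164565-75169519), a repressor linked to quiescence of mesenchymal progenitors, measured 28.3, 24.1 and 27.7 CPM in young PBS, 18.6, 26.1 and 14.7 CPM in old PBS and 34.0, 23.8 and 20.3 CPM in old rMETRNL. *Osr1* (ENSMUSG00000048387, chr12:9570116-9581500), a zinc finger factor of embryonic connective tissue that returns in injured muscle, measured 8.11, 8.88 and 7.75 CPM in young PBS, 7.75, 6.23 and 8.77 CPM in old PBS and 12.9, 8.53 and 7.38 CPM in old rMETRNL. Both genes overlapped between all groups. *Gli1* (ENSMUSG00000025407, chr10:127329882-127341974), a transcriptional effector and target of Hedgehog signalling, was low, at 1.91, 2.16 and 1.75 CPM in young PBS, 3.18, 2.89 and 2.07 CPM in old PBS and 3.49, 2.09 and 2.23 CPM in old rMETRNL. It rested on only 31 to 66 counts a library. Whether the counting used strand is not given in the sources used here. Antisense genes overlap 5.31% of the exon length of *Gli1*, 4.55% of *Pdgfra*, 3.67% of *Dpp4*, 3.49% of *Pi16* and 2.03% of *Cd34*. Of other genes on the opposite strand, *Arhgap9* overlaps 1.24% of *Gli1* and *Gm42803* overlaps 1.66% of *Pdgfra*. If the counting did not use strand, reads of a member and of such a partner cannot be told apart. The partner of *Pi16* has no row of its own in the counts used here.

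**Figure D1:**
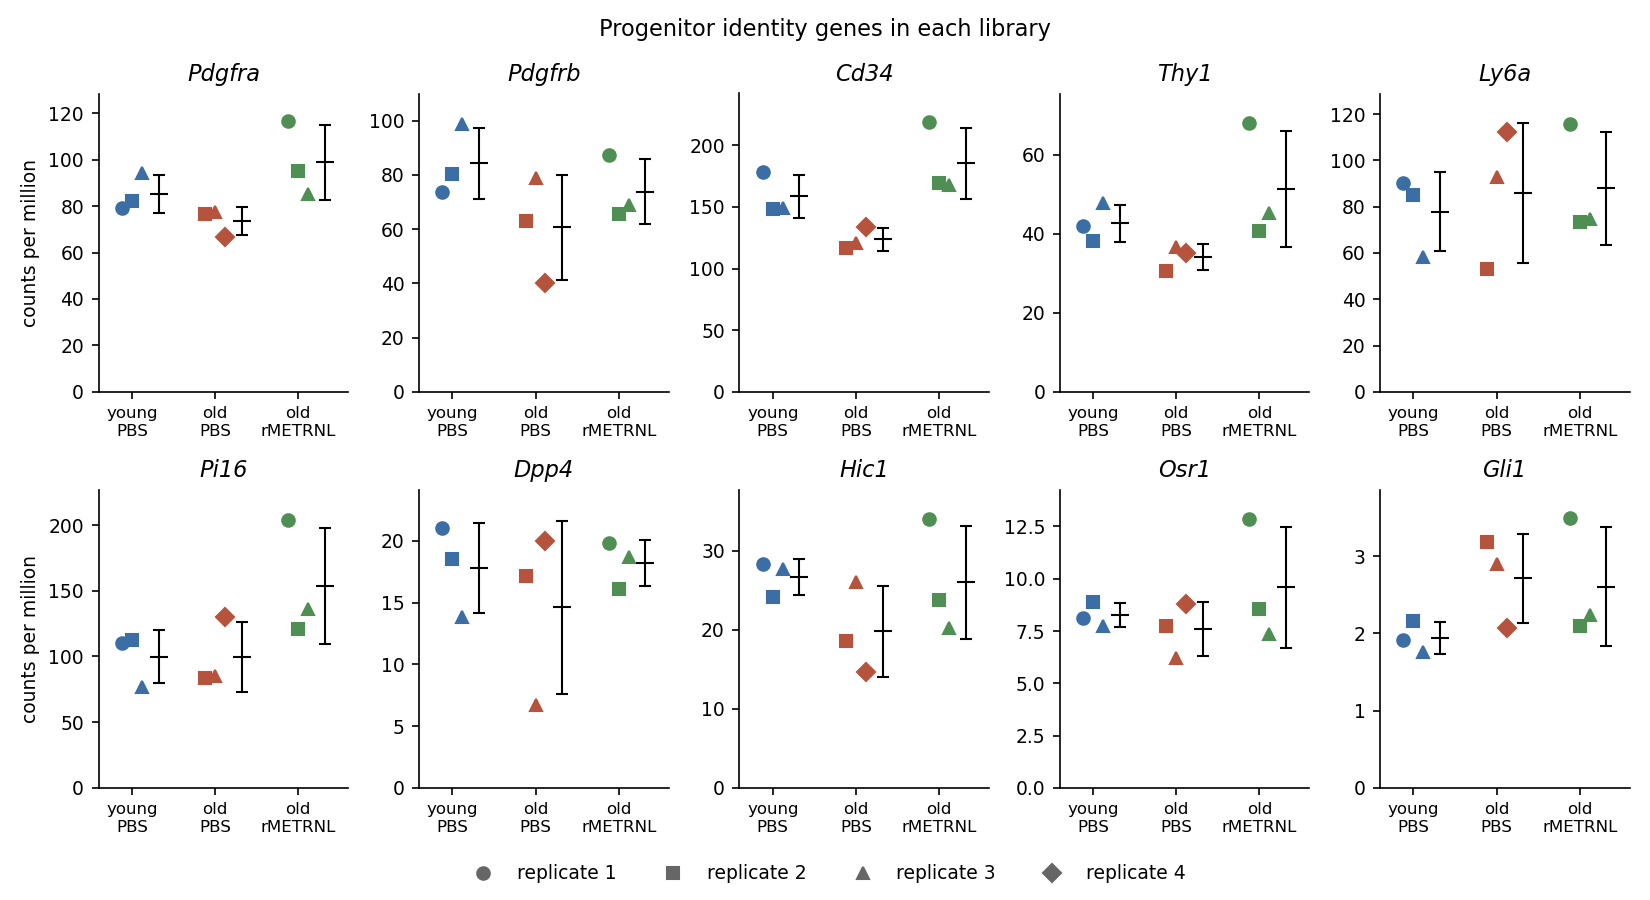
CPM of each gene (vertical axis, from 0) in young PBS, old PBS and old rMETRNL, with a marker shape for each replicate number and a bar for the mean ± SD of 3 libraries. For *Pdgfra*, *Cd34* and *Thy1* the old PBS markers sit under all others, and old rMETRNL 1 tops 8 of the 10 panels.

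One old rMETRNL library stood out. Old rMETRNL 1 was the highest of the 9 libraries for 8 members, all but *Dpp4* and *Pdgfrb*, and above the median of the 9 libraries for all 10. Its members averaged 0.52 log2 units above their own means, against 0.00046 in old rMETRNL 2 and 0.011 in old rMETRNL 3. The 3 old PBS libraries were lowest for 8 members between them, and averaged -0.22, -0.19 and -0.14 log2 units from the means in old PBS 2, 3 and 4. They were not low for the same genes. Old PBS 2 was lowest for *Ly6a*, *Cd34* and *Thy1*, old PBS 3 for *Dpp4* and *Osr1*, and old PBS 4 for *Pdgfra*, *Pdgfrb* and *Hic1*. Young PBS 3 was lowest for *Pi16* and *Gli1* and yet highest for *Pdgfrb*.

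**Figure D2:**
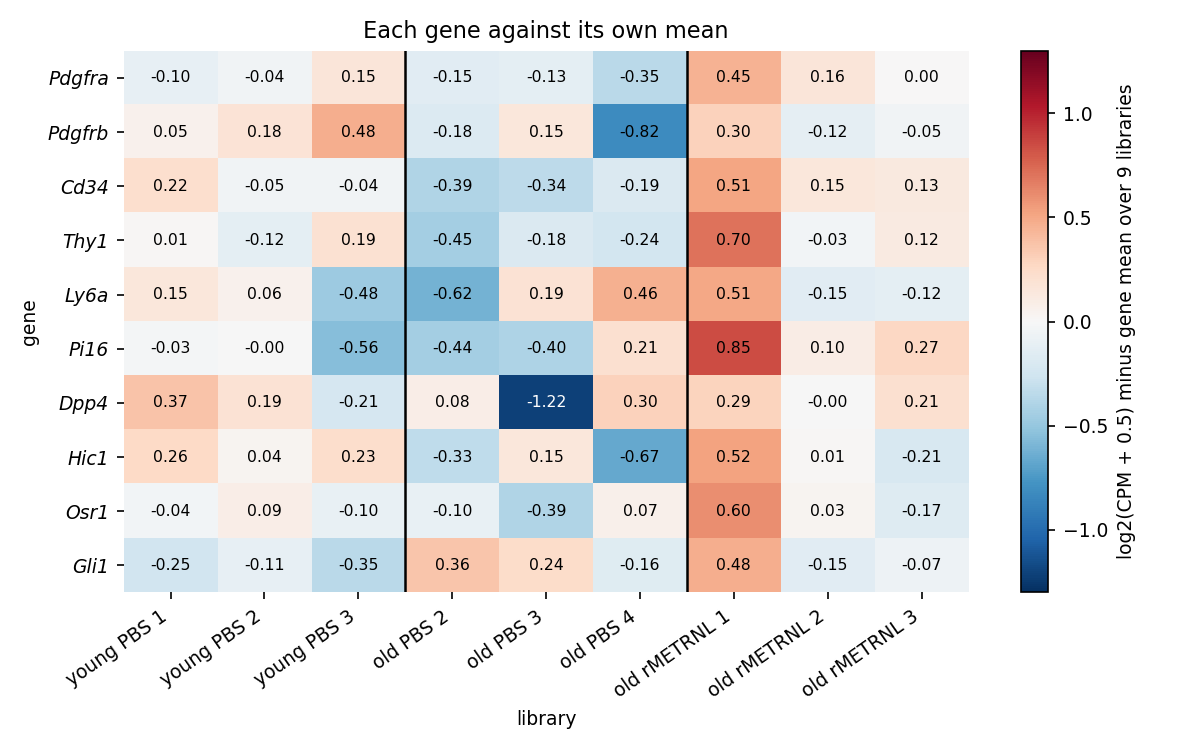
Heat map of log2(CPM + 0.5) of each gene (rows) in each library (columns), minus the mean of that gene over the 9 libraries, with the value printed in each cell and black lines between the groups. The column of old rMETRNL 1 is above 0 for all 10 genes, and the deepest cell is *Dpp4* in old PBS 3 at -1.22.

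Old PBS was compared with young PBS to ask how age changed the injured muscle, with edgeR's quasi-likelihood test on the 6 libraries and Benjamini-Hochberg adjustment over all 15560 genes tested. None of the 10 members passed an adjusted p of 0.05, against 10 genes or 0.0643% of all genes tested. At an unadjusted p of 0.05 the count was again 0 members, where 5.91% of all genes passed, and DESeq2, which called 1.41% of its genes, called no member. The members leaned downward, with 7 of 10 below 0 and a median log2 fold change of -0.24, against 0.014 over all genes. The lowest values were those of *Pdgfrb* (log2 fold change -0.47, SE 0.25, adjusted p = 0.959 by edgeR), *Hic1* (-0.42, SE 0.22, adjusted p = 0.948) and *Cd34* (-0.35, SE 0.17, adjusted p = 0.899). With 1 library left out, *Pdgfrb* ranged from -0.70 to -0.24 and *Hic1* from -0.67 to -0.24 on the log2 scale, both lowest without old PBS 3. In that setting these 2 members passed an unadjusted p of 0.05, and so did 3322 of all 15884 genes tested.

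Groups that did not overlap are a second way to read so few libraries. Old PBS lay wholly below young PBS for 3 of the 10 members, *Pdgfra*, *Cd34* and *Thy1*, and 5.49% of all genes tested did so. No member lay wholly above, as 5.06% of genes did. The fold of *Pdgfra* was 0.867 with a 95% interval of 0.673 to 1.12, that of *Cd34* 0.785 (0.602 to 1.02) and that of *Thy1* 0.805 (0.630 to 1.03), so each interval still took in no change. *Gli1* was the only member with a sizeable value above 0, at a log2 fold change of 0.49 (SE 0.32, adjusted p = 0.994 by edgeR), and its groups overlapped. *Pi16* had a log2 fold change of 0.0034, with an interval from -0.54 to 0.54. Leaving out old PBS 3 turned *Dpp4* from -0.28 to 0.072 on the log2 scale, and it moved the median of the members from -0.24 to -0.11. Without young PBS 2, the library with keratins, the median was again -0.24. With old PBS 3, which held the least *Mobp* and *Snap25* of brain, as the sole old PBS library, *Pdgfra* was at -0.13, *Cd34* at -0.39 and *Thy1* at -0.21 on the log2 scale, an alternative chosen after seeing the data. In it *Pdgfrb* was at -0.092 and *Hic1* at -0.029, both nearer to 0 than with all libraries, and *Dpp4* at -1.41 (adjusted p = 0.0929 by edgeR). No member passed there, where 0.45% of all genes did.

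Old rMETRNL was compared with old PBS to ask what the injected protein changed in old muscle. Again no member passed the adjusted threshold, against 17 of 15682 genes or 0.108%, all of them lower in old rMETRNL, and DESeq2 called none of the members and 1.84% of its genes. At an unadjusted p of 0.05, 4 members were higher and 0 lower, whereas 8.07% of all genes passed in either direction. These were *Cd34* (log2 fold change 0.57, SE 0.18, adjusted p = 0.420 by edgeR), *Thy1* (0.58, SE 0.21, adjusted p = 0.516), *Pi16* (0.61, SE 0.26, adjusted p = 0.610) and *Pdgfra* (0.41, SE 0.18, adjusted p = 0.611). Altogether 9 of 10 members were above 0, with a median log2 fold change of 0.35 against -0.0056 over all genes. The groups stood apart, higher in old rMETRNL, for *Pdgfra*, *Cd34* and *Thy1*, where 7.19% of all genes did, and 0 members stood apart in the other direction, where 5.38% did.

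In fold units *Cd34* was 1.48 times as high in old rMETRNL as in old PBS (95% interval 1.11 to 1.98), *Thy1* 1.49 times (1.07 to 2.08), *Pi16* 1.53 times (1.013 to 2.30) and *Pdgfra* 1.33 times (1.006 to 1.76). *Ly6a*, although it is the partner of *Pdgfra* in sorting FAPs, gave a log2 fold change of 0.019 with an interval from -0.65 to 0.68, and *Gli1* a fold of 0.948 (0.559 to 1.61). Without old rMETRNL 1 the median log2 fold change of the members fell to 0.19, and *Ly6a* turned to -0.23. None of the 4 members named above passed an unadjusted p of 0.05 without that library, and 0 members in all did so. Over all genes 800 of 16418 did. Without old PBS 2 the count was 1, *Cd34*, where 867 of 16275 genes passed. Without old PBS 3 it was 5, *Hic1* and *Pdgfrb* entering and *Pi16* leaving, where 4410 of 15981 genes passed. With the replicate number as a block it was 0, where 477 of 15682 genes passed. Whether the numbers pair the libraries is not known. With old PBS 3 again as the sole old PBS library, *Pdgfra* was at 0.34, *Cd34* at 0.61 and *Thy1* at 0.48, while *Pdgfrb* was at -0.10 and *Hic1* at -0.014. In that setting 1.05% of all genes and 1 member passed the threshold, *Dpp4* at a log2 fold change of 1.44 (adjusted p = 0.0142 by edgeR), a value that rests on the single low library described above. The comparison shares its 3 old PBS libraries with the comparison of old with young, so the low *Pdgfra*, *Cd34* and *Thy1* of these libraries enter both, and the mirrored signs are not independent of each other.

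Between old rMETRNL and young PBS, which share no library, edgeR called 0 of 15396 genes, 0%, and no member. DESeq2 called 0% as well. At an unadjusted p of 0.05, 371 genes (2.41%) and 1 member passed in edgeR, and 355 genes in DESeq2. That member was *Pi16*, with a log2 fold change of 0.62 (SE 0.20, adjusted p = 0.9996 by edgeR) and a fold of 1.54 (95% interval 1.13 to 2.09). *Pi16* was also the only member whose groups did not overlap, higher in old rMETRNL, as 3.91% of all genes were, and no member lay wholly lower, as 2.88% did. Its adjusted p fell to 0.00152 when genes of low counts were not filtered out, the only setting for this comparison in which any member passed, and 0.467% of all genes passed with it. Of the other 9 members, 7 were above 0 and 2, *Pdgfrb* at -0.19 and *Hic1* at -0.041, below. *Dpp4* had a fold of 1.02 (95% interval 0.798 to 1.31) and *Hic1* one of 0.972 (0.747 to 1.26). Without old rMETRNL 1 the median log2 fold change of the members went from 0.21 to -0.010, and that of *Pi16* from 0.62 to 0.36.

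**Figure D3:**
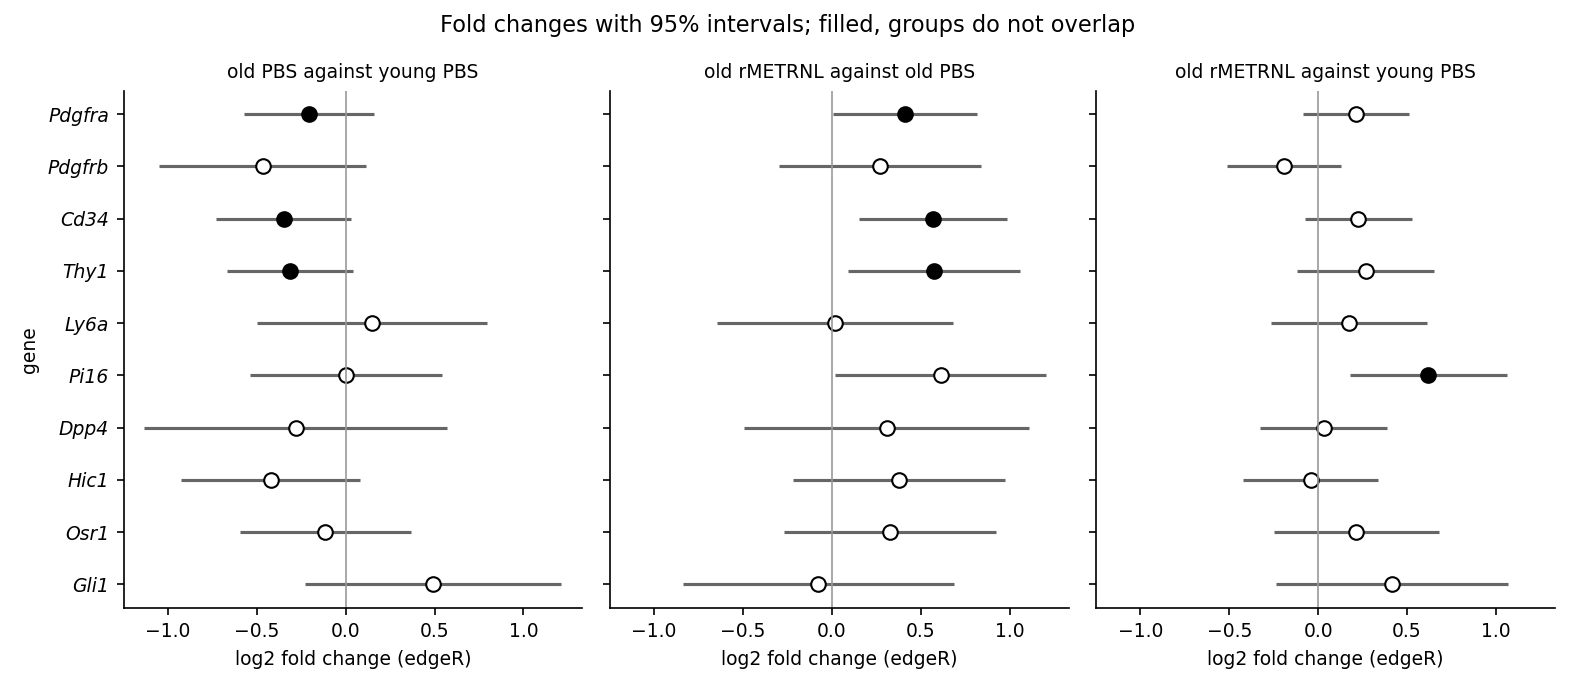
Log2 fold change (horizontal axis) of each gene in the 3 comparisons, with 95% intervals from edgeR, filled where the groups of 3 libraries did not overlap and open where they did. *Pdgfra*, *Cd34* and *Thy1* are filled on the left of 0 in old against young PBS and on the right of 0 in old rMETRNL against old PBS, and *Pi16* is filled in old rMETRNL against young PBS.

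Expressed relative to *Pdgfra* in the same library, the members show how their levels ran beside it (ratios are of CPM, and differences are of log2 ratios with 0.5 CPM added). With 3 libraries against 3, an exact two-sided permutation test cannot go below p = 0.1, so no such difference can reach 0.05. *Gli1* reached this smallest p in old PBS against young PBS, its ratio to *Pdgfra* being 0.0242, 0.0263 and 0.0186 in young PBS and 0.0416, 0.0373 and 0.0311 in old PBS, a log2 difference of 0.60 (exact permutation p = 0.1). All old PBS ratios exceeded all young PBS ratios, and this was so for 12.5% of all genes, whereas 1.71% lay wholly lower. In old rMETRNL the ratio was 0.0299, 0.0220 and 0.0262, wholly below old PBS with a log2 difference of -0.48 (exact permutation p = 0.1). A wholly lower ratio was found for 24.9% of all genes in this comparison and a wholly higher one for 0.676%, in which *Pdgfra* is the denominator and itself stood apart between the groups.

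The ratio of *Pdgfrb* to *Pdgfra* was 0.930, 0.976 and 1.05 in young PBS, 0.822, 1.02 and 0.603 in old PBS and 0.750, 0.688 and 0.809 in old rMETRNL. Old rMETRNL lay wholly below young PBS, with a log2 difference of -0.39 (exact permutation p = 0.1). The ratio of *Hic1* to *Pdgfra* was 0.358, 0.293 and 0.293 in young PBS and 0.292, 0.250 and 0.238 in old rMETRNL, also wholly lower but by a very small gap, with a log2 difference of -0.27 (exact permutation p = 0.1). These were 2 of the 9 members compared, where 7.95% of all genes had a wholly lower and 0.422% a wholly higher ratio. In old PBS both ratios spread widely, old PBS 4 being the lowest of the 9 libraries and old PBS 3 lying among the young PBS values. The remaining members, *Ly6a*, *Cd34*, *Dpp4*, *Pi16*, *Thy1* and *Osr1*, kept ratios to *Pdgfra* that overlapped between groups in all 3 comparisons.

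**Figure D4:**
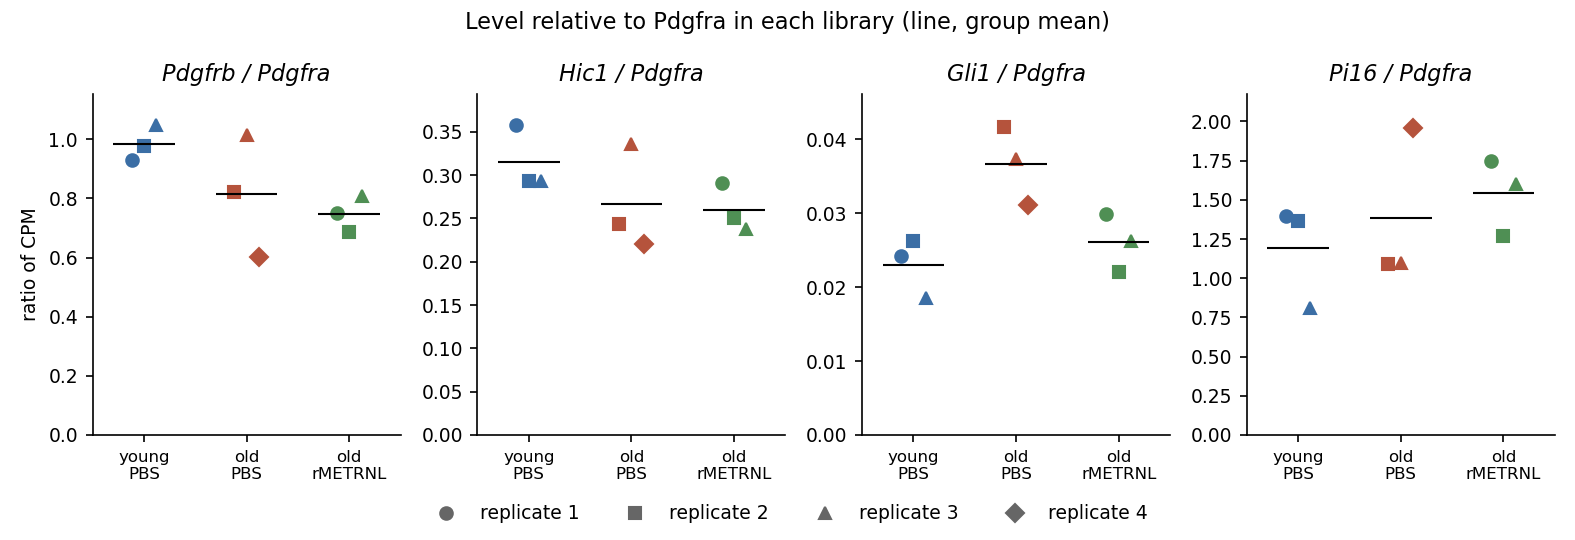
Ratio of the CPM of *Pdgfrb*, *Hic1*, *Gli1* and *Pi16* to that of *Pdgfra* (vertical axis, from 0) in each library, by group, with a line at the group mean. The *Gli1* ratio of all 3 old PBS libraries, 0.0311 to 0.0416, is above that of all the others, and the *Pi16* ratio overlaps between groups.

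Over the 9 libraries the members were unequally alike to *Pdgfra*. On log2 CPM, Pearson's r with *Pdgfra* was 0.86 for *Thy1*, 0.76 for *Hic1*, 0.74 for *Cd34*, 0.68 for *Pdgfrb*, 0.61 for *Osr1*, 0.44 for *Pi16*, 0.26 for *Gli1*, 0.10 for *Dpp4* and 0.0077 for *Ly6a*, as a description over 9 libraries that fall into 3 groups and include old rMETRNL 1, high for nearly all members. *Thy1* ranked 165th among the 14166 genes of at least 1 CPM compared with *Pdgfra*, and *Ly6a* 7304th. The 5 genes of highest r were *Zfp251* (0.98), *Rab32* (0.97), *Msx1* (0.97), *Fbn1* (0.96) and *Papln* (0.95). *Fbn1*, which encodes fibrillin-1 of elastic microfibrils, also belongs to the list of adventitial progenitor genes used below, and measured 315, 332 and 438 CPM in young PBS, 291, 274 and 185 CPM in old PBS and 530, 413 and 327 CPM in old rMETRNL. Without old rMETRNL 1 and old PBS 4, the libraries farthest from the median of *Pdgfra*, r was 0.97 for *Fbn1* and 0.87 to 0.92 for the other 4.

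**Figure D5:**
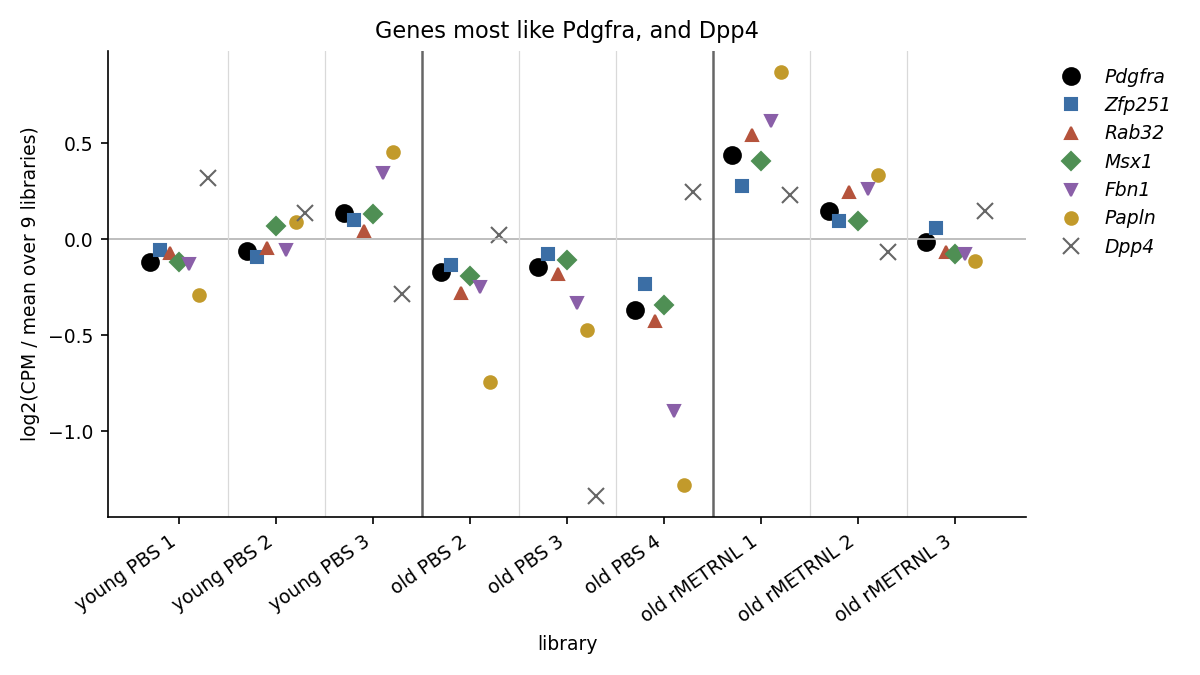
Log2 of CPM over the mean of 9 libraries (vertical axis) for *Pdgfra*, for the 5 genes whose levels ran closest to it, and for *Dpp4* (crosses), in each library, with darker lines between the groups. The 5 genes follow *Pdgfra* down in the old PBS libraries and up in old rMETRNL 1, while *Dpp4* has its lowest value in old PBS 3, where it measured 6.67 CPM.

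Other genes of fibroblasts were taken as lists to set beside the members, and none of their genes passed the adjusted threshold of edgeR in any of the 3 comparisons. Counts of list genes at an unadjusted p of 0.05 by edgeR stand beside shares over all genes tested. These shares were 5.91% in old PBS against young PBS and 8.07% in old rMETRNL against old PBS. Of 12 pan-fibroblast genes, 10 were below 0 in old PBS against young PBS (median log2 fold change -0.32) and 10 above 0 in old rMETRNL against old PBS (median 0.46), where 5 passed an unadjusted p of 0.05, all higher. In old PBS against young PBS 2 passed it, both lower. The extremes were *Osr2*, the paralog of *Osr1*, at -0.60 in the first (adjusted p = 0.808 by edgeR) and 0.81 in the second (adjusted p = 0.406), both with groups apart. At the other end stood *Gsn* at 0.11 and *Nt5e* at -0.054. In old rMETRNL against young PBS, 11 of the 12 were above 0 with a median of 0.15, from *Nt5e* at -0.17 to *Twist2* at 0.55.

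Of 10 adventitial progenitor genes, the list nearest to *Pi16* and *Dpp4*, 6 were below 0 in old PBS against young PBS (median -0.15) and 7 above 0 in old rMETRNL against old PBS (median 0.38, 3 at an unadjusted p of 0.05, all higher). In the first comparison 1 gene passed that p, and it was lower. *Fbn1* was the lowest in the first, at -0.52, and the highest in the second, at 0.75 (adjusted p = 0.482 by edgeR). *Pcolce2*, at 0.34 and -0.21, was at the opposite ends. Its levels in old PBS, 21.3, 5.53 and 30.4 CPM, were lowest in the same library, old PBS 3, as those of *Dpp4*. Of this list *Cd55*, *Sema3c*, *Ackr3*, *Efhd1* and *Igfbp6* also had their lowest level of all libraries in old PBS 3. *Anxa3*, *Mfap5* and *Cd248* were lowest in old PBS 2, and *Fbn1* in old PBS 4. Why these genes were low together was not tested. Without old PBS 3 the median of the list in old PBS against young PBS turned to 0.034. With old PBS 3 as the sole old PBS library, chosen after seeing the data, it was -0.84. DESeq2 called *Mfap5*, a microfibril gene, in old rMETRNL against old PBS (log2 fold change 0.69, adjusted p = 0.0415). In old rMETRNL against young PBS the median was 0.17, and *Mfap5* was the highest at 0.34 (adjusted p = 0.9996 by edgeR) with groups apart, while *Sema3c* was at -0.080.

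Genes of the parenchymal fibroblast state leaned the other way, 7 of 9 being above 0 in old PBS against young PBS (median 0.16) and 6 of 9 below 0 in old rMETRNL against old PBS (median -0.20). *Hsd11b1*, which encodes the enzyme that regenerates active glucocorticoid, measured 14.8, 7.10 and 22.4 CPM in old PBS, 6.14, 6.71 and 3.79 CPM in young PBS and 7.14, 3.16 and 5.14 CPM in old rMETRNL. Its log2 fold change was 1.42 (SE 0.41, adjusted p = 0.457 by edgeR) in the first and -1.53 (SE 0.43, adjusted p = 0.329) in the second, and DESeq2 called both (adjusted p = 0.0417 and 0.0206). The groups were apart in the first, and in the second they overlapped between old PBS 3 and old rMETRNL 1. *Col15a1* was at the opposite end in both, at -0.59 and 0.84. In old rMETRNL against young PBS the list had a median of 0.23, from *Crispld2* at -0.28 to *Cxcl14* at 0.42.

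The ligands of the PDGF receptors and a related gene were set beside both receptors. Of 5 genes of the PDGF system, 4 were below 0 in old PBS against young PBS (median -0.12, 2 at an unadjusted p of 0.05, both lower), 3 above 0 in old rMETRNL against old PBS (median 0.25) and 3 above 0 in old rMETRNL against young PBS (median 0.0075). The widest values were those of *Pdgfrl*, a gene related in sequence to the receptors, at -0.76 (adjusted p = 0.797 by edgeR) and 0.76 (adjusted p = 0.563), with groups apart only in the second. Among the ligands, *Pdgfd* was at 0.16 in the first, *Pdgfa* at -0.14 in the second and at -0.25 in old rMETRNL against young PBS, and *Pdgfc* at 0.13 in the latter. *Pdgfb*, the other gene at an unadjusted p of 0.05 in old PBS against young PBS, is named after its values were seen. This ligand of both receptors measured 47.4, 39.8 and 45.6 CPM in young PBS, 25.7, 41.9 and 26.1 CPM in old PBS and 35.04, 40.2 and 38.2 CPM in old rMETRNL. Its log2 fold change was -0.49 (SE 0.21, adjusted p = 0.836 by edgeR), and without old PBS 3, its highest old PBS library, -0.76 (adjusted p = 0.0436 by edgeR). In that setting *Pdgfrl* was at -1.235 (adjusted p = 0.0293 by edgeR), and 2.52% of all genes tested passed the threshold.

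*Gli1* is read as a target of Hedgehog signalling, whose other genes were set beside it. Of 13 listed, 9, 10 and 9 were tested in the 3 comparisons in the order above. Here 8 of 9 were below 0 in old PBS against young PBS (median -0.28), the exception being *Ptch1*, a receptor that is itself a Hedgehog target, at 0.30 (SE 0.24, adjusted p = 0.994 by edgeR). *Gli2* was the lowest at -0.76 with groups apart (adjusted p = 0.874). In old rMETRNL against old PBS, 8 of 10 were above 0 (median 0.36), the lowest being *Hhip* at -0.89, and in old rMETRNL against young PBS 7 of 9 (median 0.11), the lowest being *Gli2* at -0.39. The ligand *Shh* had no count in young PBS and old rMETRNL, and 0, 1 and 0 counts in old PBS 2, 3 and 4, under the floor of 3. The listed ligand *Dhh* had 16, 9 and 5 counts in young PBS, 0, 9 and 3 in old PBS and 11, 0 and 12 in old rMETRNL. *Ihh* had 0 to 6 counts a library.

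Cells other than FAPs that read the same genes were followed by their own markers. The 10 endothelial markers, which bear on *Cd34*, summed to 474 to 538 CPM in young PBS, 370 to 468 CPM in old PBS and 461 to 585 CPM in old rMETRNL. Of these markers 8 of 10 were below 0 in old PBS against young PBS (median -0.30) and 8 of 10 above 0 in old rMETRNL against old PBS (median 0.40), the signs that *Cd34* had, and their part in the result was not tested. *Kdr*, a receptor of vascular endothelial growth factor, was at -0.53 and 0.53 and apart in both, and the opposite ends were *Vwf* at 0.34 and *Flt1* at -0.51. The 8 mural cell markers, which bear on *Pdgfrb*, had medians of -0.22 and 0.33, with sums of 806 to 880 CPM in young PBS, 703 to 932 CPM in old PBS and 754 to 895 CPM in old rMETRNL. The mural marker *Higd1b* was the lowest at -0.68 and then the highest at 0.44, with *Myh11*, a smooth muscle myosin, at 0.11 and -0.27, and the part of these cells in the result was not tested.

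The 8 T cell markers, which bear on *Thy1* and *Dpp4*, went the other way, with a median of 0.71 in old PBS against young PBS and -0.33 in old rMETRNL against old PBS, and sums of 18.2 to 22.2, 24.5 to 30.3 and 21.3 to 29.4 CPM in young PBS, old PBS and old rMETRNL. The coreceptor *Cd8a* was the highest in the first at 1.77 (adjusted p = 0.420 by edgeR), with groups apart, and *Cd4* the lowest at -0.12, while in the second *Cd4* was at 0.58 and *Cd3e*, a subunit of the T cell receptor complex, at -1.33 (adjusted p = 0.459). The brain markers, which bear on *Pdgfra* and *Thy1*, were highest in old PBS, where *Mobp*, a myelin gene of oligodendrocytes, measured 31.1, 11.5 and 41.7 CPM and *Snap25*, a synaptic gene, 14.6, 5.48 and 25.4 CPM, both without a count in the other 6 libraries. By edgeR *Mobp* passed in both comparisons with old PBS (adjusted p = 0.0422 and 0.0202), and *Snap25* in the one with old rMETRNL (adjusted p = 0.0338), the adjusted p against young PBS being 0.0598. *Eno2* had the lowest value of the neuron list in old PBS against young PBS, 0.57. Of the liver, *Ttr*, which encodes the carrier transthyretin, measured 5.30, 2.72 and 3.57 CPM in old PBS and *Apoa1*, the main protein of high-density lipoprotein, 3.05, 2.32 and 1.63 CPM, both again without a count in the other 6. *Ttr* passed in both comparisons (adjusted p = 0.0438 and 0.0214 by edgeR) and *Apoa1* in the second (adjusted p = 0.0338). *Pdgfra* and *Thy1* were at their lowest in these same libraries. The 8 macrophage markers were all below 0 in old PBS against young PBS (median -0.37) and all above 0 in old rMETRNL against old PBS (median 0.45). They ran from *Cd68* at -0.60 to *Csf1r* at -0.18 in the first and from *Csf1r* at 0.24 to *Itgam* at 0.66 in the second. In both comparisons *Pdgfra*, *Cd34* and *Thy1* thus had the same signs as the medians of the endothelial, mural and macrophage lists, and no difference between the members and these markers was tested.

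The lists of satellite cells, Schwann cells, adipocytes, tenocytes and muscle fibres had no gene past the adjusted threshold of edgeR. Their medians in old PBS against young PBS were -0.10, -0.19, 0.57, -1.06 and 0.052, and in old rMETRNL against old PBS 0.14, 0.36, -0.14, 0.72 and -0.24. The tenocyte list was the widest, with *Kera*, which encodes the matrix proteoglycan keratocan, at -2.15 and 1.62 and apart in both. The adipocyte list, the fate that gives FAPs their name, held *Cidec* at 0.76 and *Fabp4* at -0.021 in the first and *Fabp4* at 0.33 and *Lep* at -0.51 in the second, all with overlapping groups. Without old PBS 3 the adipocyte median was -0.042 in the first and 0.34 in the second, the reverse of both signs.

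Of the other lists, that of satellite cells ran from *Calcr* at -1.31 to *Sdc4* at 0.23 in old PBS against young PBS and from *Sdc4* at -0.062 to *Calcr* at 0.93 in old rMETRNL against old PBS, and without old PBS 4 its medians turned to 0.086 and -0.047. The Schwann cell list ran from *Ngfr* at -0.63 to *S100b* at 2.43 and from *S100b* at -1.64 to *Ngfr* at 0.80. *S100b*, which glia of the brain share, was apart in both. The muscle fibre list ran from *Myh1* at -0.31 to *Mb* at 0.58 and from *Mb* at -0.73 to *Myh1* at 0.56, and without old PBS 4 its medians turned to -0.16 and 0.061. *Scx* was the tenocyte gene opposite *Kera*, at 0.29 and -0.68. Of the keratinocyte genes 2 were tested, *Krt10* at -2.52 and 0.00050 and *Trp63* at 0.44 and -0.64.

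In old rMETRNL against young PBS no gene of these cell type lists passed the adjusted threshold either, and no hepatocyte gene was high enough to be tested. The T cell list was the one with a gene apart and over 1 log2 unit, *Cd3d* at 1.09 against *Cd3e* at -0.58. The macrophage list ran from *Cd68* at -0.030 to *Itgam* at 0.30, which was apart as well. The vessel lists were narrow, from *Flt1* at -0.23 to *Emcn* at 0.20 in endothelium and from *Higd1b* at -0.23 to *Kcnj8* at 0.16 in mural cells. Satellite cell genes ran from *Calcr* at -0.38 to *Myf5* at 0.37, and muscle fibre genes from *Myh4* at -0.35 to *Myh1* at 0.25. Adipocyte genes ran from *Lep* at -0.35 to *Cidec* at 0.62, and both ends of the tenocyte list were below 0, *Tnmd* at -0.93 and *Thbs4* at -0.26. Among genes of nerve and brain, *Syp* was at -0.65 and *Gap43* at 0.70, and *Egr2* at -0.19 and *S100b* at 0.80. *Krt10* and *Trp63* were at -2.52 and -0.20, and young PBS 2, with its keratins, is in this comparison. Without young PBS 2 the median of the keratinocyte list went from -1.36 to 0.00016.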

How the data were processed

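The authors deposited raw counts per Ensembl gene for 9 libraries, with replicates kept apart. The submitters' processing notes name STAR, featureCounts and mm9 without versions or roles, and the methods name the NEBNext Ultra kit, paired-end reads and DESeq2. The counts file holds no coordinates, and 99.9% of its genes have a model in GENCODE vM21 (GRCm38), which gave coordinates and exon lengths here. Symbols were matched for 54409 genes.

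Groups were compared in pairs with edgeR 4.0.16 in R 4.3.3 (filterByExpr, TMM, glmQLFit, glmQLFTest, Benjamini-Hochberg adjustment, threshold 0.05). Standard errors were taken as the size of the log2 fold change over the square root of F, with 95% intervals from them, and FPKM from CPM and the length of all annotated exons. DESeq2 1.42.0 with its defaults, its size factors, 2 other filters, a fit of all 9 libraries, a replicate block and each library left out were the alternatives, to which old PBS 3 alone was added after seeing the data. Ratios to *Pdgfra* used 0.5 CPM added and exact permutation. The fits were tested on simulated data. Chi-square per degree of freedom between replicates was 11.9 to 188, so no library was a copy of another. The labels do not say that libraries are separate mice, so p-values measure the spread between libraries.

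The members and lists were chosen with earlier results of these data known. Named genes are all members; from each list, genes past the threshold or otherwise those of largest positive and negative fold change; and the 5 genes most like *Pdgfra* over 9 libraries. Some ends of lists in the comparisons of old rMETRNL are not reported here. Of 155 other listed genes 154 were matched. Intervals and floors cover counting error or the spread between libraries only.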

Additional observations from a re-analysis of the deposited data

How the results depend on the processing

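In old PBS against young PBS 10 genes were called, and 354 were called with no filter on low counts, 3 with at least 10 counts in every library, 265 by DESeq2, 63 in a fit of all 9 libraries, 77 with old PBS 3 as the only old PBS library (chosen after seeing the data, the lone library being assumed to vary like the others) and 2 to 401 with 1 library left out, 401 without old PBS 3. For old rMETRNL against old PBS the 17 calls became 740, 1, 357, 71, 180 and 3 to 1560 in the same order, 1560 again without old PBS 3. For old rMETRNL against young PBS the count of 0 became 132 with no filter and 0 to 1 with 1 library left out. The cause was not tested.

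Calls of members stayed at 0 in old PBS against young PBS under all settings, became 1 in old rMETRNL against old PBS with old PBS 3 alone (*Dpp4*), and 1 in old rMETRNL against young PBS with no filter (*Pi16*). Genes of the fibroblast, PDGF, Hedgehog and Ly6 lists called were 1 with no filter, 1 by DESeq2 and 0 to 5 with 1 library left out in the first comparison, and 5, 2 and 0 to 10 in the second. The 5 and the 10 with 1 library left out came without old PBS 3, where 2.52% and 9.76% of all genes were called. With no filter these shares were 1.23% and 2.55%, and by DESeq2 1.41% and 1.84%. The median of the members was -0.17 in the first comparison with old PBS 3 alone, and ranged from -0.24 to -0.11, from 0.19 to 0.49 and from -0.010 to 0.30 in the 3 comparisons with 1 library left out. Members apart relative to *Pdgfra* numbered 1 to 3, 1 to 4 and 2 to 4 with 1 library left out, where 17.1% to 40% (old PBS against young PBS), 27.7% to 52.4% (old rMETRNL against old PBS) and 12.2% to 35.7% (old rMETRNL against young PBS) of all genes were apart.

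The sign turned in old PBS against young PBS for *Pi16* with no filter (-0.0043) and with old PBS 3 alone (-0.22), and with 1 library left out for *Ly6a* (-0.084 to 0.40), *Dpp4* (-0.58 to 0.072), *Pi16* (-0.23 to 0.11) and *Osr1* (-0.23 to 0.014). It turned in old rMETRNL against old PBS with old PBS 3 alone for *Ly6a* (-0.089), *Hic1* (-0.014) and *Pdgfrb* (-0.10), and with 1 library left out for *Ly6a* (-0.23 to 0.24), *Dpp4* (-0.047 to 0.59) and *Gli1* (-0.34 to 0.057). It turned in old rMETRNL against young PBS with 1 library left out for *Ly6a* (-0.076 to 0.29), *Dpp4* (-0.12 to 0.16), *Hic1* (-0.28 to 0.11) and *Osr1* (-0.055 to 0.38). List medians turned as well with 1 library left out. These were in the first comparison the adventitial (-0.36 to 0.034), Ly6 (-0.27 to 0.24), satellite cell (-0.37 to 0.086), adipocyte (-0.042 to 1.16), muscle fibre (-0.16 to 0.31) and keratinocyte (-1.32 to 0.31) lists, and in the second the parenchymal (-0.41 to 0.028), Ly6 (-0.16 to 0.12), satellite cell (-0.047 to 0.55), adipocyte (-0.81 to 0.34) and muscle fibre (-0.50 to 0.061) lists. In old rMETRNL against young PBS they included the parenchymal (-0.019 to 0.33), PDGF (-0.068 to 0.077), Hedgehog (-0.043 to 0.18) and Ly6 (-0.070 to 0.23) lists.

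Deviations of same-numbered libraries correlated at -0.32 to 0.41. Libraries of different numbers were not correlated, so these values cannot decide whether replicate numbers pair the libraries. With a replicate block over the shared numbers, 11, 65 and 0 genes were called in the 3 comparisons, the median of the members in old rMETRNL against old PBS was 0.19, *Pi16* was at -0.13 in old PBS against young PBS, and *Hic1* (-0.029) and *Pdgfrb* (-0.090) turned in old rMETRNL against old PBS. No member was called under the block.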
